A study of Mus musculus with 9 samples.

Results

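Chemokines are small secreted or membrane-held proteins that direct the movement of immune cells, and 9 of their genes were followed in hippocampal RNA: Ccl2, Ccl3, Ccl4, Ccl5, Ccl6, Ccl12, Cxcl10, Cxcl16 and Cx3cl1. They were taken by their symbols from the deposited count table, which lists 31804 genes, and all 9 were found there. Ccl2, Ccl3, Ccl4, Ccl5, Ccl6, Ccl12 and Cxcl16 lie on chromosome 11, Cxcl10 on chromosome 5 and Cx3cl1 on chromosome 8. The series asks which transcripts of the adult hippocampus depend on Camta1, a calmodulin-binding transcription activator, and it compared 3 groups of male C57BL/6NCrl mice, an inbred strain, with 3 animals in each. Every mouse received a recombinant adeno-associated virus (rAAV) in the dorsal hippocampus when 8 weeks old, and its tissue was collected after a further 3 weeks. The virus of the control group carried an shRNA, a hairpin that triggers RNA interference, without a target. The viruses of the other groups carried hairpins with different sequences against Camta1, called shRNA A and shRNA B. The mCherry-fluorescent tissue was cut out by eye, so each library mixes infected and uninfected cells of many types, and fewer cells of a type cannot be told apart from less RNA per cell. No group without virus or without surgery was analysed here, so a response shared by all 9 mice is not visible.

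A chemokine binds a receptor coupled to a G protein on a leukocyte, and the gradient of the ligand steers the cell. In the brain, Cx3cl1 (fractalkine) is made by neurons and is held on their membrane, and its receptor Cx3cr1 marks microglia. Ccl2 and Ccl12 are ligands of Ccr2, which is carried by inflammatory monocytes. Ccl3, Ccl4 and Ccl5 attract macrophages and T cells, Ccl3 and Ccl5 are ligands of Ccr1, and Ccl6 is a rodent chemokine made by macrophages and microglia that also binds Ccr1. Cxcl10 is a classic interferon-induced ligand of Cxcr3 on T and NK cells, and Cxcl16 is a membrane-held ligand of Cxcr6.

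The 250 bases before the start of transcription were available for 5 of the 9 genes (Ccl3, Ccl6, Ccl12, Cxcl10 and Cx3cl1) from RefSeq, build GRCm38.p6. Of these, 3 are printed: Cxcl10, which had the widest range between the groups, Ccl12, the member that passed the test, and Cx3cl1, the most abundant one. Capitals mark matches, on either strand, to the letters of an interferon-stimulated response element (ISRE, here TTTC repeated head to tail with any 2 bases between), to the NF-kB consensus, or to CGCG, the core of the box that plant relatives of Camta1 bind. They are Cxcl10 at chr5:92348890-92349139 (minus strand), Ccl12 at chr11:82101595-82101844 (plus strand) and Cx3cl1 at chr8:94771930-94772179 (plus strand), written 5′ to 3′.
Cxcl10: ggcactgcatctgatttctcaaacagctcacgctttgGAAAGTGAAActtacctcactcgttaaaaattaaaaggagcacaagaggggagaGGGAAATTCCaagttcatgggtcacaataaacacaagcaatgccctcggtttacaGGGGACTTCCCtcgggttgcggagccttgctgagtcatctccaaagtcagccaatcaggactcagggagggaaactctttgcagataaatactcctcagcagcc
Ccl12: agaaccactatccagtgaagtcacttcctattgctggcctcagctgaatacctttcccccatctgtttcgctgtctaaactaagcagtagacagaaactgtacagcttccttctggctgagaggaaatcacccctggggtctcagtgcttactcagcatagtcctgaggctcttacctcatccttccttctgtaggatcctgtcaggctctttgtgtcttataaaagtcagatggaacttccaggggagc
Cx3cl1: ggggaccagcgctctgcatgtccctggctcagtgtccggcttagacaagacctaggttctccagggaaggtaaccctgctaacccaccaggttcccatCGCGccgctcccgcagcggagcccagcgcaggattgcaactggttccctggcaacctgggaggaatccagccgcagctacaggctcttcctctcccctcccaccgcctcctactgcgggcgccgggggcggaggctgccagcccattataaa
In Cxcl10 the ISRE letters stand at bases -213 to -204, counted back from the start of transcription, and NF-kB letters stand at -159 to -150 and, as 2 matches that overlap each other, at -104 to -95 and -103 to -94. Over 32851 RefSeq promoters of the same length, 2.98% hold the ISRE core, 7.25% the NF-kB consensus and 33.8% CGCG. The CGCG of Cx3cl1 lies at -152 to -149. None of these 3 motifs was found in the windows of Ccl3, Ccl6 and Ccl12, and TTCNNNGAA, the core of the interferon-gamma activated site (GAS), which 7.02% of promoters hold, was found in none of the 5. A match of letters is a description of the sequence and not evidence of a bound factor.

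Libraries held 29123744 to 38189288 counts, so that 3 reads equal 0.0786 to 0.103 CPM (counts scaled to a common library size), and such floors cover counting error only. Camta1 lay between 427 and 455 CPM in controls and between 145 and 266 CPM in the 6 libraries with a hairpin against it. edgeR's quasi-likelihood test gave it log2 fold changes of -1.01 ± 0.22 (SE) for shRNA A, at an adjusted p of 0.388, and -1.02 ± 0.22 for shRNA B, at 0.0776, neither past the threshold of 0.05. It passed under 3 of 17 alternatives for shRNA A (adjusted p from 0.0128 to 0.946) and under 5 of 17 for shRNA B (0.00191 to 0.239), and with replicate 2 of shRNA B left out it passed in both comparisons (edgeR adjusted p = 0.0150 and 0.0367). Values of the groups are given in the order control, shRNA A, shRNA B where they stand in a row. Replicate 3 of the controls stood apart in 4 genes of the choroid plexus, which summed to 974 CPM there and to at most 17.0 CPM in every other library, and replicate 1 of the controls had the most meningeal transcripts, 47.2 CPM against 16.4 to 27.0 CPM elsewhere. Neuronal markers such as Snap25 and Camk2a were high in every library, with a sum of 13549 to 15602 CPM over 8 genes. The libraries of a group are separate animals only on the word of the series' design.

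Except for Cx3cl1, the chemokines were rare transcripts in the control hippocampus. Per kilobase of exon, Cx3cl1 had a mean level of 189 ± 26.7 CPM in controls (SD, n = 3), 314 times that of Ccl6, the next in order, at 0.604 ± 0.165 CPM per kb. Ccl12 followed at 0.380 ± 0.128, Cxcl16 at 0.250 ± 0.0210 and Ccl3 at 0.194 ± 0.131 CPM per kb. Cxcl10, Ccl2, Ccl5 and Ccl4 closed the order with 0.0566, 0.0469, 0.0464 and 0.0332 CPM per kb. The 3 control libraries separated Cx3cl1 from Ccl6 and Ccl12 from Cxcl16, and every other pair of neighbours in this order overlapped. With shRNA B the order was another: Cxcl10 stood second with 3.67 ± 2.47 CPM per kb, before Ccl12 with 2.66 ± 1.45 and Ccl5 with 1.64 ± 1.4 CPM per kb. Ccl6, the second in controls, stood in place 5 there, at 0.848 ± 0.117 CPM per kb. Among the libraries of shRNA B only Cx3cl1 and Cxcl10, and Ccl6 and Cxcl16, did not overlap as neighbours. With shRNA A the order ran from Cx3cl1 over Ccl12, Ccl6 and Cxcl10, at 0.800, 0.726 and 0.647 CPM per kb, with overlap between all neighbours after Cx3cl1. Exon lengths are from a GRCm38 annotation and need not be the ones behind the counts.

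**Figure D1:**
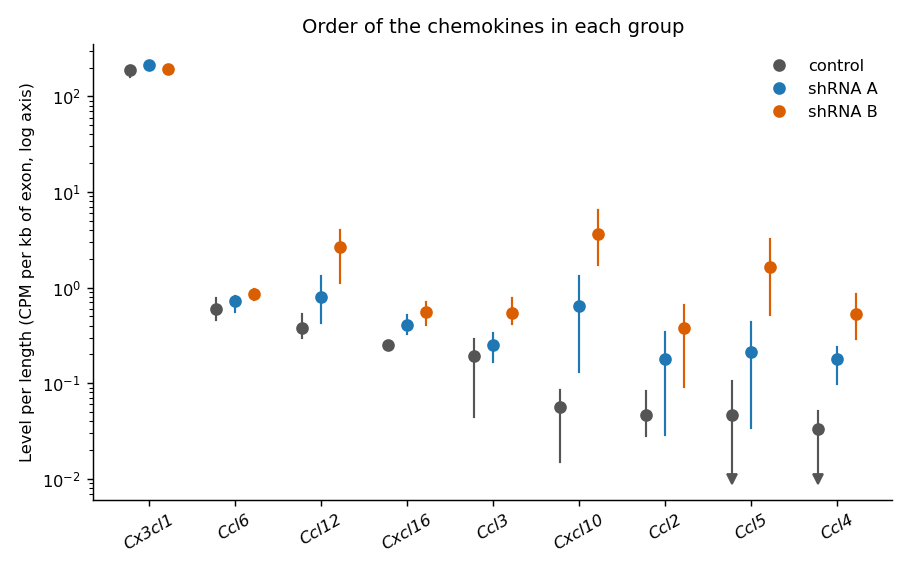
Mean level per length of the 9 chemokines (CPM per kb of exon, log axis) in each group, in the order of the control means. Points are means of 3 libraries, lines run from the lowest to the highest library, and an arrowhead marks a lowest library at 0; Cx3cl1 stays near 189 to 211 while Cxcl10 goes from 0.0566 in controls to 3.67 with shRNA B.

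Without Cx3cl1, the levels per length of the other 8 chemokines added up to 1.25, 1.79 and 1.79 CPM per kb in the 3 controls, to 3.03, 4.93 and 2.23 under shRNA A, and to 5.46, 17.5 and 9.49 under shRNA B. The 3 groups did not overlap in this sum. Its make-up differed too. Cxcl10 made up 1.2% to 4.73% of the sum in controls, 5.85% to 26.9% with shRNA A and 29.8% to 36.9% with shRNA B. Ccl6 went the other way as a share, with 32.4% to 43.5% in controls, 11.3% to 35.9% with shRNA A and 4.81% to 13.5% with shRNA B. Ccl12 kept a like share of 16.5% to 29.5%, 19.1% to 26.7% and 20.3% to 30.3%. These shares are descriptions of the libraries, and no test was made of them.

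In the test across all 16438 genes that passed the filter on low counts, 8 of the 9 members were tested, since Ccl4 was too low. With shRNA B, 1 of the 8, Ccl12, rose past the threshold of edgeR's test and 0 fell, where 1.02% of all tested genes were called in that comparison (0.779% higher). With shRNA A, 0 of 8 members were called, beside 0.0243% of all genes. For the mean of both hairpins against control, 0 of 8 were called, beside 0.0973% of all genes, and between the hairpins 0 of 8, where 0 of all 16438 genes were called. At an unadjusted p under 0.05 the members numbered 6 with shRNA B, 2 with shRNA A, 5 for the mean and 4 between the hairpins. The shares of all genes under that limit were 12.8%, 6.90%, 10.4% and 9.34%. DESeq2 called 4 members with shRNA B, 2 for the mean, and 0 with shRNA A and between the hairpins. Over all genes DESeq2 called more than edgeR: 380 with shRNA B, 225 for the mean, 41 with shRNA A and 120 between the hairpins. The numbers from edgeR were 167, 16, 4 and 0. All 8 fitted log2 fold changes were above 0 with shRNA B, with a median of 2.10, and with shRNA A, with a median of 0.87, against medians of 0.00128 and 0.000227 over all genes tested. The filter kept 5 of the 8 with the help of the shRNA B libraries, where they were high, since control and shRNA A libraries alone would have kept 3 (Ccl6, Cxcl16 and Cx3cl1). The comparisons of shRNA A and of shRNA B share the same 3 controls.

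Read library by library, 7 of the 9 members (all but Ccl6 and Cx3cl1) were higher in every shRNA B library than in every control, a pattern shown by 9.27% of the tested genes. With shRNA A the same held for 3 members, Ccl4, Cxcl10 and Cxcl16, beside 6.84% of the tested genes, and for these 3 all 6 libraries with a hairpin against Camta1 lay above the controls, beside 2.51%. Every shRNA B library was above every shRNA A library for Ccl3, Ccl4, Ccl5 and Cxcl10, beside 7.29%. Ccl4 is not among the tested genes behind these shares. Ccl2, Ccl3, Ccl5, Ccl12 and Cxcl10 passed the filter with the help of the shRNA B libraries, where they were high. The shares are thus not a like measure for these members. No member was lower without overlap in any of these comparisons. Replicate 2 of shRNA B was the highest of all 9 libraries for 7 members, and replicate 2 of shRNA A was the highest of its group for 6. Those 2 libraries also had the lowest Camta1 of their groups, 145 and 174 CPM. In shRNA A the most Camta1, 254 CPM, was in replicate 3, which was the lowest of its group for 4 members. In shRNA B the most Camta1, 266 CPM, was in replicate 3, but replicate 1, at 239 CPM, was the lowest of its group for 7 members. The part of the degree of knock-down in the chemokine levels was not tested. Replicate 3 of shRNA A was at or below the highest control for Ccl2, Ccl3, Ccl5 and Ccl12.

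**Figure D2:**
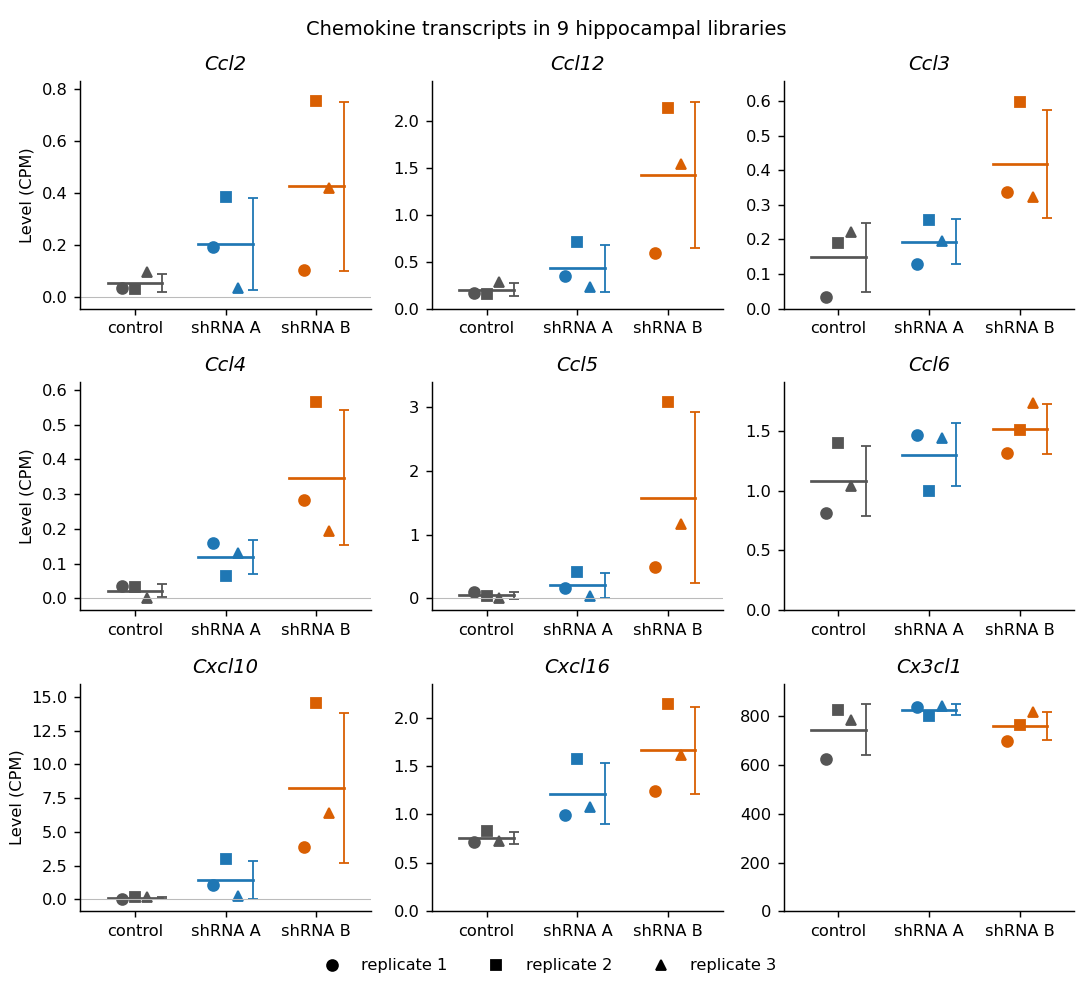
Level of each chemokine (CPM, linear axes that differ between panels) in the 9 libraries by group, with marker shapes for the replicate numbers, horizontal lines for group means and bars for 1 SD (n = 3). Replicate 2 of shRNA B is highest in 7 panels, and Ccl6 and Cx3cl1 overlap between all groups.

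Cxcl10, the ligand of Cxcr3, had the widest range of the 9 genes. Its counts were 1, 6 and 5 in the controls, 34, 93 and 9 under shRNA A, and 151, 462 and 198 under shRNA B. As levels these were 0.0339, 0.191 and 0.157 CPM, then 1.09, 2.99 and 0.295 CPM, then 3.90, 14.5 and 6.37 CPM. The 3 groups did not overlap, although the lowest shRNA A library came close to the highest control. Summed over the group, shRNA B held 61.7 times the controls' level, with a counting interval of 35.1 to 120 that leaves out the spread between animals, and shRNA A 11.3 times (6.26 to 22.4). edgeR's log2 fold change was 5.95 ± 1.06 (SE) with shRNA B, with an adjusted p of 0.0551 that missed the threshold, and 3.46 ± 1.27 with shRNA A (edgeR adjusted p = 0.703). Between the hairpins it was 2.49 ± 0.73 (edgeR adjusted p = 0.349). The call for shRNA B is borderline: leaving out replicate 2 of shRNA A, replicate 3 of shRNA A or replicate 1 of shRNA B gave edgeR adjusted p = 0.0416, 0.0489 and 0.0494, and over all alternatives p ran from 1.14e-06, with DESeq2, to 0.254. Exact two-sided permutation of all 6 knock-down libraries against the controls gave p = 0.0238, where 0.0119 is the smallest p that 84 splits allow. The authors' deposited table gives Cxcl10 a log2 fold change of 3.51 for shRNA A and 6.01 for shRNA B, and an adjusted p of 7.14e-05 in a test over all 3 groups. Exons of Cxcl10 share 133 bases with Art3 on the other strand, and the libraries keep no strand. Art3 stood at 2.77 to 2.82 CPM in controls, 2.75 to 3.22 with shRNA A and 3.26 to 3.80 with shRNA B, a narrower range than that of Cxcl10.

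Of the Ccr2 ligands, Ccl12 was the member that rose past the threshold with shRNA B. Its counts were 5, 5 and 9 in controls, 11, 22 and 7 under shRNA A, and 23, 68 and 48 under shRNA B, or 0.204 ± 0.0689, 0.429 ± 0.249 and 1.43 ± 0.779 CPM (SD, n = 3). All 3 shRNA B libraries were above the controls, while shRNA A overlapped both other groups. The summed level with shRNA B was 6.68 times that of the controls (counting interval 4.12 to 11.4). The log2 fold change was 2.76 ± 0.55 (SE, 95% confidence interval 1.54 to 3.97, edgeR adjusted p = 0.0450). With shRNA A it was 1.06 ± 0.65 (edgeR adjusted p = 0.777), and between the hairpins it was 1.70 ± 0.49 (edgeR adjusted p = 0.313). The call was lost when replicate 1, 2 or 3 of the controls was left out (edgeR adjusted p = 0.198, 0.170 and 0.101), replicate 1 or 3 of shRNA A (0.0769 and 0.0555), or replicate 2 or 3 of shRNA B (0.130 and 0.0749), with log2 fold changes between 2.33 and 3.06. The authors' deposited table gives Ccl12 a log2 fold change of 1.07 for shRNA A and 2.79 for shRNA B, and over all 3 groups its adjusted p is 0.000283. Permuting the 6 knock-down libraries against the controls (exact, two-sided) gave p = 0.0595.

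Ccl2, the other Ccr2 ligand, was scarcer. Its counts were 1, 1 and 3 in controls, 6, 12 and 1 under shRNA A, and 4, 24 and 13 under shRNA B. Replicate 3 of shRNA A had no more than the controls, and replicate 1 of shRNA B was close to them at 0.103 CPM against a highest control of 0.0945 CPM. For shRNA B the log2 fold change was 2.85 ± 0.94 (SE, edgeR adjusted p = 0.232) and for shRNA A 1.85 ± 1.08 (edgeR adjusted p = 0.764). With 5 reads in all controls together, the ratio of the summed levels, 7.48 with shRNA B, has a counting interval of 2.96 to 24.3. The same exact permutation gave Ccl2 p = 0.0714.

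Ccl5, which attracts T cells and monocytes, was next to Cxcl10 in the size of its difference. Its counts were 3, 1 and 0 in controls, 5, 13 and 1 under shRNA A, and 19, 98 and 36 under shRNA B. Every shRNA B library lay above all 6 others, and replicate 2 of shRNA B, at 3.08 CPM, held most of the group's reads. The log2 fold change with shRNA B was 5.05 ± 1.11 (SE, 95% confidence interval 2.54 to 7.56), with an edgeR adjusted p of 0.0836. It was 2.14 ± 1.56 with shRNA A (edgeR adjusted p = 0.816). Without replicate 1 of shRNA B, the lowest of its group, Ccl5 passed the threshold at 5.49 (edgeR adjusted p = 0.0139), and the alternatives spanned 0.00510 to 0.253. With 4 reads in all controls, the ratio of 34.9 for shRNA B has a counting interval of 13.4 to 130. The exact permutation of the knock-down libraries against the controls gave p = 0.0714 for Ccl5.

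Ccl3 and Ccl4 are macrophage inflammatory proteins whose genes are next to each other on chromosome 11. Ccl3 had counts of 1, 6 and 7 in controls, 4, 8 and 6 under shRNA A, and 13, 19 and 10 under shRNA B. Its log2 fold change was 1.44 ± 0.50 (SE) with shRNA B (edgeR adjusted p = 0.247). With shRNA A it was 0.35 ± 0.58 (edgeR adjusted p = 0.920), which became -0.09 without replicate 1 of the controls, so no direction is given. Ccl4 had counts of 1, 1 and 0 in controls, 5, 2 and 4 under shRNA A, and 11, 18 and 6 under shRNA B, with no overlap between the 3 groups. It was too low for the filter. When all 23074 genes with a read were tested, where 0.901% were called, its log2 fold change with shRNA B was 3.78 ± 0.76 (edgeR adjusted p = 0.0164). DESeq2 gave 4.0 with an adjusted p of 0.0548, the other value of a range of 0.0164 to 0.0548. With 2 reads in all controls, the ratio of 16.0 has a counting interval of 4.10 to 137. The exact two-sided permutation test of both hairpins against control gave p = 0.0238 for Ccl4 and p = 0.131 for Ccl3.

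Ccl6 is the neighbour of Ccl3 on the other side, and its groups overlapped. Its counts were 24, 44 and 33 in controls, 46, 31 and 44 under shRNA A, and 51, 48 and 54 under shRNA B, or 1.08 ± 0.296, 1.30 ± 0.265 and 1.52 ± 0.210 CPM (SD, n = 3). The log2 fold change with shRNA B was 0.48 ± 0.24 (SE, 95% confidence interval -0.05 to 1.0, edgeR adjusted p = 0.442), and the exact permutation of both hairpins against control gave p = 0.131. Ccl9, a related macrophage chemokine on the far side of Ccl6, had 32, 40 and 38 counts in controls, 44, 28 and 47 under shRNA A and 54, 47 and 59 under shRNA B.

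Cxcl16, which is held on the cell membrane, had close values in the controls. Its counts were 21, 26 and 23 in controls, 31, 49 and 33 under shRNA A, and 48, 68 and 50 under shRNA B, or 0.755 ± 0.0634, 1.22 ± 0.316 and 1.66 ± 0.451 CPM (SD, n = 3). All 6 libraries with a hairpin against Camta1 were above all 3 controls, and the hairpins overlapped each other. For shRNA B the log2 fold change was 1.13 ± 0.26 (SE), with an edgeR adjusted p of 0.0694, and for shRNA A 0.68 ± 0.27 (edgeR adjusted p = 0.702). It passed the threshold for shRNA B without replicate 1 of that group, at 1.31 (edgeR adjusted p = 0.0350), within a range over the alternatives of 0.0350 to 0.273. The exact two-sided permutation test of both hairpins against control gave p = 0.0238. Exons of Cxcl16 share 552 bases with Zmynd15 on the other strand, which had 0.203 to 0.912 CPM over the 9 libraries and a log2 fold change of 0.67 with shRNA B (edgeR adjusted p = 0.480), so that reads of the pair cannot be told apart there.

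Cx3cl1 differed least between the groups, and with 18456 to 27040 counts a library it is the most precisely measured member. It had 626, 825 and 783 CPM in controls, 838, 803 and 842 CPM under shRNA A, and 699, 765 and 816 CPM under shRNA B. The lowest library was replicate 1 of the controls, and all groups overlapped. The log2 fold change was 0.15 ± 0.10 (SE, 95% confidence interval -0.06 to 0.37) with shRNA A and 0.03 ± 0.10 (-0.18 to 0.24) with shRNA B, with edgeR adjusted p = 0.780 and 0.938. Without replicate 1 of the controls the second was -0.08, and without replicate 3 of shRNA B it was -0.02. Between the hairpins the interval was -0.34 to 0.09. The exact permutation of both hairpins against control gave p = 0.381. A difference of 2-fold, a log2 of 1, thus lies outside each of these intervals.

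**Figure D3:**
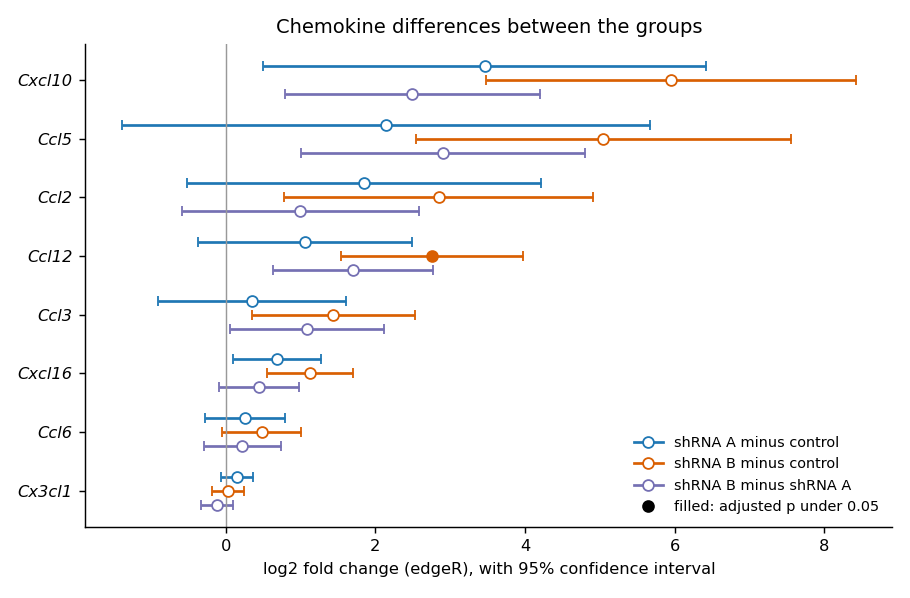
Log2 fold changes of the 8 tested chemokines with 95% confidence intervals from edgeR, for each hairpin against control and for the hairpins against each other (shRNA B minus shRNA A). The filled point, Ccl12 with shRNA B at 2.76, is the one past the adjusted threshold of 0.05, and the intervals of Cx3cl1 are the narrowest.

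Across the 9 libraries, several members followed each other. Pearson's r of log2 levels (CPM with 0.5 added) was 0.970 between Ccl12 and Ccl5, 0.957 between Cxcl10 and Ccl12, 0.949 between Cxcl10 and Cxcl16 and 0.941 between Cxcl10 and Ccl5. Cx3cl1 stood aside, with r of 0.0921 to Cxcl10 and 0.105 to Ccl12, and its closest member was Ccl6 at 0.631. These r are descriptions over 9 libraries in 3 groups that differ in level, so they hold the group differences as well as the animals. Among all tested genes that averaged 1 CPM or more, the 3 nearest to Cxcl10 were Nek9, Parp9 and Psmb8 (r of 0.989, 0.986 and 0.985). Nek9 encodes a mitotic kinase, Parp9 an ADP-ribosyltransferase and Psmb8 a subunit of the immunoproteasome. The nearest to Ccl12 were Oas1b, Lcp2 and Psmb8 (0.982, 0.980 and 0.979), and to Ccl5 they were Col7a1, Mx2 and Psmb8 (0.986, 0.984 and 0.984). Psmb8 was thus among the 3 nearest genes of 3 members. Cxcl16 was nearest to Gbp5, H2-T10 and Nek9 (0.976, 0.970 and 0.962) and Ccl2 to H2-Q6, Sp100 and H2-T23 (0.958, 0.957 and 0.953). Reads of H2 and Gbp genes can be split between near copies. The genes nearest to Cx3cl1 were Chrm3, a muscarinic receptor, Dlgap1, a protein of the postsynaptic density, and Gmpr (0.977, 0.973 and 0.968). Ccl6 was nearest to Shank2, C230052I12Rik and Pi4k2a (0.978, 0.964 and 0.952), and Ccl3 to Cant1, Atxn2l and Trim11 (0.962, 0.960 and 0.959).

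Of 23 chemokine receptors, 8 passed the filter and edgeR called 0 in each of the 4 comparisons, as did DESeq2 and limma-voom, while at most 1 had an unadjusted p under 0.05. The receptors' log2 fold changes had a median of 0.16 for shRNA A and 0.08 for shRNA B. Cx3cr1, the microglial receptor of Cx3cl1, stood at 57.6 ± 2.81, 61.5 ± 3.01 and 63.8 ± 5.91 CPM in the 3 groups (SD, n = 3). Its log2 fold change with shRNA B was 0.15 ± 0.08 (SE, edgeR adjusted p = 0.448). Ccr2, Cxcr3, Ccr1 and Cxcr6 were near the floor in all libraries, which does not hold for every leukocyte receptor. Ccr2 had 1, 2 and 4 counts in controls and 0, 3 and 2 with shRNA B, and Cxcr3 had 0, 1 and 3 against 2, 4 and 4. Ccr1 had 4, 4 and 4 counts against 6, 2 and 8, and Cxcr6 had 5, 4 and 9 against 1, 5 and 4. With shRNA A these 4 receptors had at most 7 counts in a library. At this depth, differences in these 4 receptors could not be resolved.

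Of 31 other chemokine ligands, 28 were in the table, 6 had 0 counts in every library (Ccl20, Ccl26, Ccl28, Cxcl2, Cxcl3 and Cxcl15) and 9 passed the filter. edgeR called 0 of these 9 in each comparison, and 3 had an unadjusted p under 0.05 for shRNA A and 2 for shRNA B. Of all tested genes, 6.90% and 12.8% were under that limit. DESeq2 and limma-voom each called 1 with shRNA B, Cxcl9, beside 380 and 95 of all genes. The log2 fold changes of the 9 ligands had a median of 0.14 for shRNA A and 0.11 for shRNA B. The abundant ones were Cxcl14, with 105 ± 3.99, 116 ± 13.9 and 103 ± 7.14 CPM, and Cxcl12, which retains leukocytes and guides neuronal precursors, with 62.0 ± 6.50, 59.0 ± 2.17 and 60.4 ± 3.19 CPM (SD, n = 3). A few rare ligands are named after their values were seen. Cxcl9, another Cxcr3 ligand, had 0, 0 and 1 counts in controls, 3, 15 and 1 under shRNA A, and 13, 15 and 8 under shRNA B. Its log2 fold change with shRNA B was 4.61 (95% confidence interval 2.16 to 7.05, edgeR adjusted p = 0.0859). Its ratio for shRNA B was 32.8, with a counting interval of 5.53 to 1333. Cxcl11, also a Cxcr3 ligand, failed the filter and overlapped between the groups. It had 2, 0 and 1 counts in controls, 3, 5 and 0 under shRNA A, and 1, 6 and 1 under shRNA B. Cxcl13, an attractant of B cells, had 0 counts in all controls, 1, 2 and 0 under shRNA A, and 6, 16 and 8 under shRNA B. Its level with shRNA B was 9.12 times a floor of 3 counts over the control group.

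Interferons and NF-kB are known inducers of many chemokines. In a list of 18 interferon signalling genes, 16 were tested and 7 rose with shRNA B in edgeR, among them Ifit3, Oasl2, Irf8 and Stat2, where 1.02% of all tested genes were called and 0.779% were called higher. None fell. DESeq2 called 10 and limma-voom 5, beside 380 and 95 of all genes. With shRNA A edgeR called 0, as did DESeq2 and limma-voom, and 3 had an unadjusted p under 0.05, beside 6.90% of all tested genes. The median log2 fold change was 0.95 with shRNA B and 0.27 with shRNA A. Oasl2, an antiviral protein related to the oligoadenylate synthetases, had 2.65, 2.74 and 2.71 CPM in controls, 11.8, 8.14 and 3.14 CPM under shRNA A, and 18.2, 48.7 and 28.0 CPM under shRNA B. Its log2 fold change with shRNA B was 3.54 ± 0.57 (SE, edgeR adjusted p = 0.0454). Ifit3, which restrains viral replication, had 2.47 ± 0.33 (edgeR adjusted p = 0.0207). Irf8, a transcription factor of microglia, had 0.72 ± 0.12 (edgeR adjusted p = 0.0217), and Stat2, a transducer of type I interferon, had 0.67 ± 0.11 (edgeR adjusted p = 0.0239). Replicate 2 of shRNA B was the highest library for Oasl2, as it was for 7 chemokines, and replicate 3 of shRNA A was the lowest of its group. Ifnb1 and Ifng, which encode interferons, had 0 counts in all libraries. The summed level of the list was 260 to 269 CPM in controls, 265 to 301 with shRNA A and 349 to 509 with shRNA B.

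In a list of 20 genes of NF-kB and inflammatory cytokines, 15 were tested and 2 rose with shRNA B in edgeR (beside 1.02% of all tested genes called). DESeq2 called the same 2 and limma-voom called 0, beside 380 and 95 of all genes. With shRNA A edgeR called 0, as did DESeq2 and limma-voom, and 2 had an unadjusted p under 0.05, beside 6.90% of all tested genes. Those that rose were Tlr2, a receptor for bacterial lipoproteins, at 1.43 ± 0.27 (SE, edgeR adjusted p = 0.0299), and Icam1, an adhesion molecule for leukocytes, at 1.1 ± 0.23 (edgeR adjusted p = 0.0446). Of 6 proteases that cut chemokines, 5 were tested and Mmp2 rose with both hairpins in edgeR. Of all tested genes, edgeR called 0.0243% with shRNA A and 1.02% with shRNA B. DESeq2 called Mmp2 with both as well, beside 41 and 380 of all genes, and limma-voom with neither. It went from 2.99 ± 0.16 to 7.51 ± 1.27 CPM under shRNA A and to 6.09 ± 1.52 CPM with shRNA B (SD, n = 3). The log2 fold changes were 1.33 ± 0.18 and 1.02 ± 0.18 (SE, edgeR adjusted p = 0.0390 and 0.0255). Adam10, which sheds Cx3cl1 and Cxcl16 from the membrane, had log2 fold changes of 0.06 ± 0.08 and 0.01 ± 0.08 and was not called. With shRNA A the call of Mmp2 was lost when any one of the 3 controls or of the 3 shRNA A libraries was left out, with edgeR adjusted p of 0.0826 to 0.229. Together with C1qa and Aldh1l1, given next, 9 list genes are named by their calls with shRNA B. All 9 lost the call without replicate 1 of the controls (edgeR adjusted p = 0.0584 to 0.215) or without replicate 3 of the controls (0.0529 to 0.115). Without replicate 2 of the controls 7 of them did (0.0618 to 0.170), and without replicate 2 of shRNA B 5 did (0.0609 to 0.139). Oasl2 and Icam1 also lost it without replicate 1 or 2 of shRNA A, Icam1 without replicate 3 of shRNA A and Oasl2 without replicate 3 of shRNA B, with edgeR adjusted p of at most 0.215 and 0.161.

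Microglia can express Ccl3, Ccl4, Ccl6 and Ccl12. All 14 microglial markers were tested. C1qa rose with shRNA B in edgeR and none fell, where 1.02% of all tested genes were called. At an unadjusted p under 0.05 there were 10 markers, beside 12.8% of all tested genes. DESeq2 called 2 (Trem2 and C1qa) and limma-voom 1 (C1qa), beside 380 and 95 of all genes. With shRNA A edgeR, DESeq2 and limma-voom called 0, and 3 had an unadjusted p under 0.05, beside 6.90% of all tested genes. C1qa, a chain of complement C1q, averaged 51.8 ± 3.9 CPM in controls and 82.0 ± 9.2 CPM with shRNA B (SD, n = 3). Its log2 fold change was 0.66 ± 0.09 (SE, edgeR adjusted p = 0.0109). The markers' median was 0.20 with shRNA B and 0.10 with shRNA A. Their summed level was 541 to 578 CPM in controls, 560 to 638 with shRNA A and 637 to 691 with shRNA B. The microglial sum was thus higher in every shRNA B library than in every control, and its part in the chemokine levels was not tested. Among 7 astrocyte markers Aldh1l1 rose with shRNA B, by a log2 of 0.47 ± 0.07 (SE, edgeR adjusted p = 0.0137), while the median of the list was -0.03. DESeq2 called 3 astrocyte markers (Gfap and Aldh1l1 higher, Gja1 lower) and limma-voom 1 (Aldh1l1). Exons of Aldh1l1 and Icam1 overlap those of other genes, and Ifit and Oas reads can be split between near copies, so these levels are uncertain.

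Markers of blood cells were few. Of 10 markers of monocytes and border macrophages 6 were tested and edgeR called 0. With shRNA B 1 of them had an unadjusted p under 0.05, beside 12.8% of all tested genes. DESeq2 called 1, Lyz2, beside 380 of all genes. The list had a summed level of 11.6 to 17.1 CPM in controls, 11.6 to 15.5 with shRNA A and 16.3 to 17.8 with shRNA B. Of 16 T and NK cell markers 2 passed the filter, Lck and Cd27, and of these edgeR, DESeq2 and limma-voom called 0, also at an unadjusted p under 0.05. The list summed to 1.93 to 2.61, 1.76 to 2.70 and 2.15 to 3.80 CPM, of which Lck alone held 1.25 to 1.85, 0.799 to 1.73 and 1.24 to 1.51 CPM. The 14 markers below the filter together had 13, 16 and 11 counts in controls, 19, 20 and 13 under shRNA A, and 23, 57 and 42 under shRNA B. Scaled for depth these were 0.441, 0.509 and 0.346 CPM, then 0.607, 0.643 and 0.425 CPM, then 0.595, 1.79 and 1.35 CPM. Every shRNA B library was thus above every control. Replicate 1 of shRNA B, the deepest library, was close in this sum to the highest control and below replicates 1 and 2 of shRNA A. Replicate 2 of shRNA B was the highest, as for 7 chemokines. Of the 14 markers, Cd4 alone held 9, 11 and 5 counts in controls, 9, 4 and 9 under shRNA A, and 10, 10 and 9 under shRNA B. Much of the control sums was thus Cd4, which was level between the groups. The part of these 14 markers in the chemokine levels was not tested. The defining T cell gene Cd3e had 1, 1 and 0 counts in controls, 2, 3 and 0 under shRNA A, and 1, 3 and 2 under shRNA B. Cd8a had 0, 0 and 2 counts, then 1, 0 and 0, then 0, 9 and 5. The 4 B cell and 7 neutrophil markers all failed the filter, and the neutrophil genes Ly6g and Mmp8 had 0 counts in every library. The neutrophil sums were at most 0.257 CPM, and the B cell sums at most 0.566 CPM. edgeR, DESeq2 and limma-voom called 0 markers of endothelium, neurons, choroid plexus and meningeal fibroblasts in each comparison. At an unadjusted p under 0.05, shRNA B had 3 of 6 endothelial, 0 of 8 neuronal, 1 of 4 choroid plexus and 1 of 4 meningeal markers. The share of all tested genes under that limit was 12.8%.

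**Figure D4:**
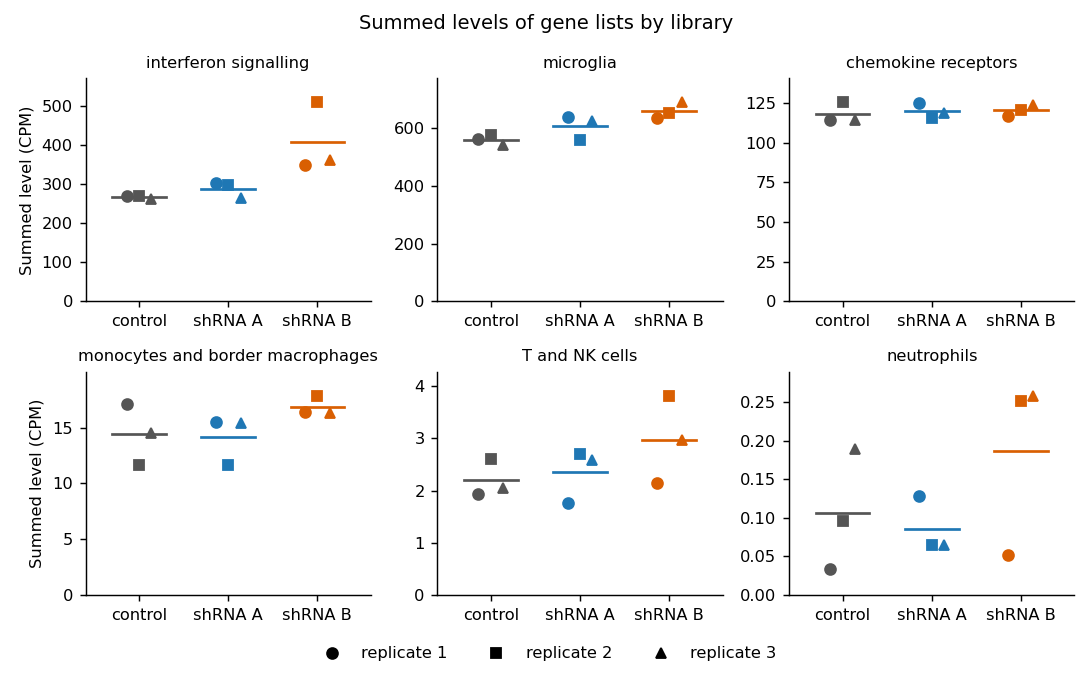
Summed level (CPM, axes from 0) of 6 gene lists in the 9 libraries by group, with marker shapes for the replicate numbers and lines for group means. Interferon signalling and microglia lie higher in all shRNA B libraries than in all controls, chemokine receptors are level, and T and NK cell sums, of which Lck is a large share, and neutrophil sums overlap between the groups.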

How the data were processed

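PolyA RNA of 9 mouse hippocampal samples was sequenced from 1.5 µg of total RNA with non-stranded libraries, per the labels' protocols. The authors deposited raw read counts per Ensembl gene, per the file headers. The build mm9 and these tools are named, without their roles, per the submitters' processing notes: HTSeq 0.6.1, TopHat 1.4.1, DESeq2 1.4.5, SAMtools 0.1.19 and R 3.1.1. No label or header names the annotation they counted on. The same deposited table has a normalized mean signal for each gene, the log2 fold change of either hairpin with a standard error, and a likelihood ratio score over the 3 groups with p-values, plain and adjusted. Their adjusted p is empty for Ccl2, Ccl3, Ccl4 and Ccl5. Of 31804 genes, 8730 had 0 counts everywhere.

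Counts were analysed in R 4.3.3 with edgeR 4.0.16, and with limma 3.58.1 for one alternative: filterByExpr (16438 genes), TMM scaling, robust quasi-likelihood fit of all 9 libraries without covariates, two-sided tests, Benjamini-Hochberg adjustment over all genes tested, threshold 0.05. The common biological coefficient of variation was 9.45%. Levels are CPM with TMM factors. Ratios of summed counts carry exact binomial intervals (confidence level 0.95), which cover counting error only. Permutation tests used log2 of CPM with 0.1 added. Alternatives were DESeq2 1.42.0, limma-voom, other scalings, no filter, fits without robust estimation, of the compared groups alone or with a replicate block, and leaving out each library. The test was checked on simulated counts, with changes planted only in genes that averaged at least 1 CPM. Ccl2, Ccl3, Ccl5 and Ccl12 averaged less, so the check did not cover changes in such rare genes. Exon lengths and overlaps of at least 100 bases come from GENCODE M21 on GRCm38, a build other than that of the counts.

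The text names all 9 members and, of each gene list, at most 4 genes past the threshold, by smallest unadjusted p for the mean of both hairpins. It also names receptors of the members (an item that the rule would name is not reported here), the 3 genes nearest to each tested member, and Camta1. Other listed genes are given as counts, chosen with their values in view. The members and lists were chosen with earlier results of these data known. No pair of libraries within a group matched within counting noise (chi-square per degree of freedom 8.32 to 22.1 over genes with at least 20 counts). P-values measure the spread between these libraries.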

Additional observations from a re-analysis of the deposited data

How the results depend on the processing

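With shRNA B, edgeR called 1 of the 8 tested chemokines. DESeq2 called 4 (Ccl5, Ccl12, Cxcl10 and Cxcl16), limma-voom 0, the fit without the low-count filter 3 (Ccl4, Ccl12 and Cxcl16), the fit without robust estimation 3 (Ccl5, Ccl12 and Cxcl10) and the fit of control and shRNA B alone 0. RLE scaling and library size alone gave 1. Leaving out each library in turn gave 0 to 4: 0 without each of the controls, replicate 1 of shRNA A and replicates 2 and 3 of shRNA B, 1 without replicate 3 of shRNA A, 2 without replicate 2 of shRNA A and 4 without replicate 1 of shRNA B. For the mean of both hairpins against 0 in the main test, DESeq2 called 2 (Ccl12 and Cxcl10) and leaving out each library gave 0. With shRNA A and between the hairpins, 0 members were called under every alternative run. The groups share replicate numbers, but these data did not show that the numbers pair the libraries. Over 9 same-numbered pairs the correlation of deviations ran from -0.141 to 0.346, over 0.1 in 1. That 1 pair, replicate 3 of shRNA A and of shRNA B, was the highest of all pairs between groups. A library correlated best with its own number in 4 of 18 comparisons. Deviations from means of 3 libraries cannot exclude a pairing. With the replicate block 4 members were called with shRNA B (Ccl5, Ccl12, Cxcl10 and Cxcl16) and 1, Cxcl10, for the mean. Over all genes, 167 were called with shRNA B, against 380 by DESeq2, 95 by limma-voom, 42 in the fit of those groups alone and 13 to 217 with a library left out. With shRNA A 4 were called, against 41 by DESeq2. For the mean 16 were called, against 225 by DESeq2 and 31 with the replicate block. Between the hairpins 0 were called, against 120 by DESeq2. Of 537 member values under the alternatives, 503 kept direction and side of the threshold, 20 crossed it upwards, 10 fell short of it and 4 changed sign. The 20 include Ccl4, Cxcl10 and Cxcl16 for the mean of both hairpins in the exact permutation test. Its p of 0.0238 for each is unadjusted, unlike the p of the other tests. The 4 that changed sign are log2 fold changes with a library left out. For Ccl3 with shRNA A they ran from -0.0854, without replicate 1 of the controls, to 0.73. For Cx3cl1 with shRNA B they ran from -0.0807, without replicate 1 of the controls, to 0.108, with -0.0238 without replicate 3 of shRNA B, and for the mean of both hairpins from -0.0192, without replicate 1 of the controls, to 0.168. The cause of these changes was not tested. Depth limits Ccl2, Ccl4 and Ccl5, with 2 to 5 reads in all controls together.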
